A study of Mus musculus with 2 samples.

Results

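The 41 genes described here are the Eph receptors, their ephrin ligands, the Slit ligands with their Robo receptors, and the netrins with the receptors Dcc, Neo1 and Unc5a to Unc5d. They were picked out by gene symbol, 41 of 23746 records in the deposited tables of gene expression, and each symbol stood at 1 locus. The set itself was chosen with earlier results of these data known. They were measured by RNA sequencing in 2 mouse medulloblastomas, tumours of the cerebellum. The knockout tumour came from a CAG-CreER, Rosa26-SmoM2, Brg1F/F animal and the wild-type tumour from a CAG-CreER, Rosa26-SmoM2, Brg1+/+ animal, with 1 library for each. Both animals therefore carried SmoM2, an activated form of the Hedgehog transducer Smoothened, and a tamoxifen-inducible Cre driven by the ubiquitous CAG promoter, and both were injected with tamoxifen 10 times, once every other day. Cre activity was not confined to tumour cells by these alleles. RNA was taken from dissected tumour tissue, and the sources used here give no ages for the animals. The comparison asks how expression in this Hedgehog-type tumour differs where Brg1, the chromatin remodelling ATPase encoded by Smarca4, is deleted.

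Axon guidance proteins steer growing axons and migrating neurons. Ephrins are held on the cell surface, ephrin-A by a lipid anchor and ephrin-B by a transmembrane segment, and they signal on contact through Eph receptor tyrosine kinases and, in reverse, into the cell that bears them. Netrins and Slits are secreted: netrins attract through DCC and repel where Unc5 receptors are present, and Slits repel through Robo receptors. In the mouse cerebellum these systems are known for the migration of granule neuron precursors, the cells from which this tumour type arises, and Unc5c is the gene mutated in the rostral cerebellar malformation mouse, in which cerebellar cells cross the rostral border.

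Levels are in FPKM, fragments scaled to transcript length and to library size, so they can be compared between genes. For each gene 1 FPKM was added to both values, and the log2 ratio is that of the knockout over the wild-type tumour; on this scale the differences of low genes are understated. A record was called expressed at 1 FPKM or more in at least 1 library. It was called higher in the knockout tumour when its log2 ratio reached 1 and lower when it reached -1. Each genotype has 1 library, so there is no replicate, no error between animals and no test, and "higher" and "lower" compare these 2 libraries. Read counts were not among the values used, so the depth is unknown. FPKM summed to 343028 in the knockout library and 388032 in the wild-type library, and 12994 records reached 1 FPKM in the knockout and 12006 in the wild-type library.

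Smarca4, the targeted gene (chromosome 9, 21616169 to 21704230, mm10), had 3.76 FPKM in the knockout library and 14.05 FPKM in the wild-type library. That level is taken over the gene as a whole, with exons the deletion leaves in place, and so does not check the deletion itself. Xist had 0.369 FPKM in the knockout library and 268.3 FPKM in the wild-type library. The Y-linked Eif2s3y had 63.4 FPKM in the knockout and 0.0264 FPKM in the wild-type library. The sex these genes mark therefore differed along with the genotype, and the 2 cannot be told apart in any result below. Cell type markers differed as well. The 12 markers of granule neuron precursors and of this tumour type summed to 409.9 FPKM in the knockout and 1059 FPKM in the wild-type library, with 9 of them lower, and all 8 markers of dividing cells were lower (summed 136.7 FPKM in the knockout and 592.2 FPKM in the wild type). Of 12 mature granule neuron markers 11 were higher (summed 992.5 FPKM in the knockout and 191.0 FPKM in the wild-type library), as were all 10 expressed Purkinje cell markers (1687 FPKM in the knockout and 77.4 FPKM in the wild type) and 7 of 8 GABAergic interneuron markers (557.8 FPKM in the knockout and 67.1 FPKM in the wild type). Of the glial lists, 10 of 11 astrocyte and Bergmann glia markers (1938 FPKM in the knockout and 527.0 FPKM in the wild-type library) and all 9 expressed oligodendrocyte markers (726.4 FPKM in the knockout and 74.1 FPKM in the wild type) were higher, and 3 of 6 oligodendrocyte precursor markers were lower and 1 higher (81.1 FPKM in the knockout and 187.0 FPKM in the wild type). Markers of microglia and macrophages summed to 491.0 FPKM in the knockout and 218.0 FPKM in the wild-type library (8 of 10 higher). Those of endothelial cells summed to 108.0 FPKM in the knockout and 35.1 FPKM in the wild type (2 of 9 expressed higher), of which Ly6c1 alone had 66.5 FPKM in the knockout and 10.2 FPKM in the wild type, those of pericytes, fibroblasts and meninges to 143.7 FPKM in the knockout and 43.4 FPKM in the wild type (4 of 9 higher), and those of choroid plexus and ependyma to 1106 FPKM in the knockout and 1052 FPKM in the wild type (0 of 7 higher or lower). Without the most abundant marker of the list, the ratio of the sums moved by over 1.5 times in 4 lists: it was 60.5 for Purkinje cells (Aldoc left out), 4.70 for GABAergic interneurons (Pvalb), 1.66 for endothelial cells (Ly6c1) and 0.662 for choroid plexus and ependyma (Ttr). No marker was listed at 0 in either library. These are bulk samples, in which fewer cells of a type and less RNA per cell cannot be told apart, and the part of the cell types in the differences below was not tested.

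Of the 41 guidance genes 32 were expressed. Among them 9 (28.1%) were higher in the knockout tumour, where 16.1% of all 13279 expressed records were, and 5 (15.6%) were lower, where 8.67% of all expressed records were. The higher genes were the 4 Unc5 receptors, Ephb1, Epha3, Efnb2, Ntn4 and Slit3. The lower genes were Epha8, Epha2, Efna2, Efna4 and Dcc. The median log2 ratio of the 32 was -0.17, against 0.09 for all expressed records, and that of all 41 was 0.050, against 0 for all records. Filtering bears on the count of higher genes, since 4 of the 9 (Unc5c, Unc5d, Efnb2 and Slit3) reached 1 FPKM in the knockout library alone. By role, 6 of 19 expressed receptors were higher and 3 lower (median 0.38), and 3 of 13 expressed ligands were higher and 2 lower (median -0.46). All families together summed to 181.6 FPKM in the knockout and 211.1 FPKM in the wild-type library.

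**Figure D1:**
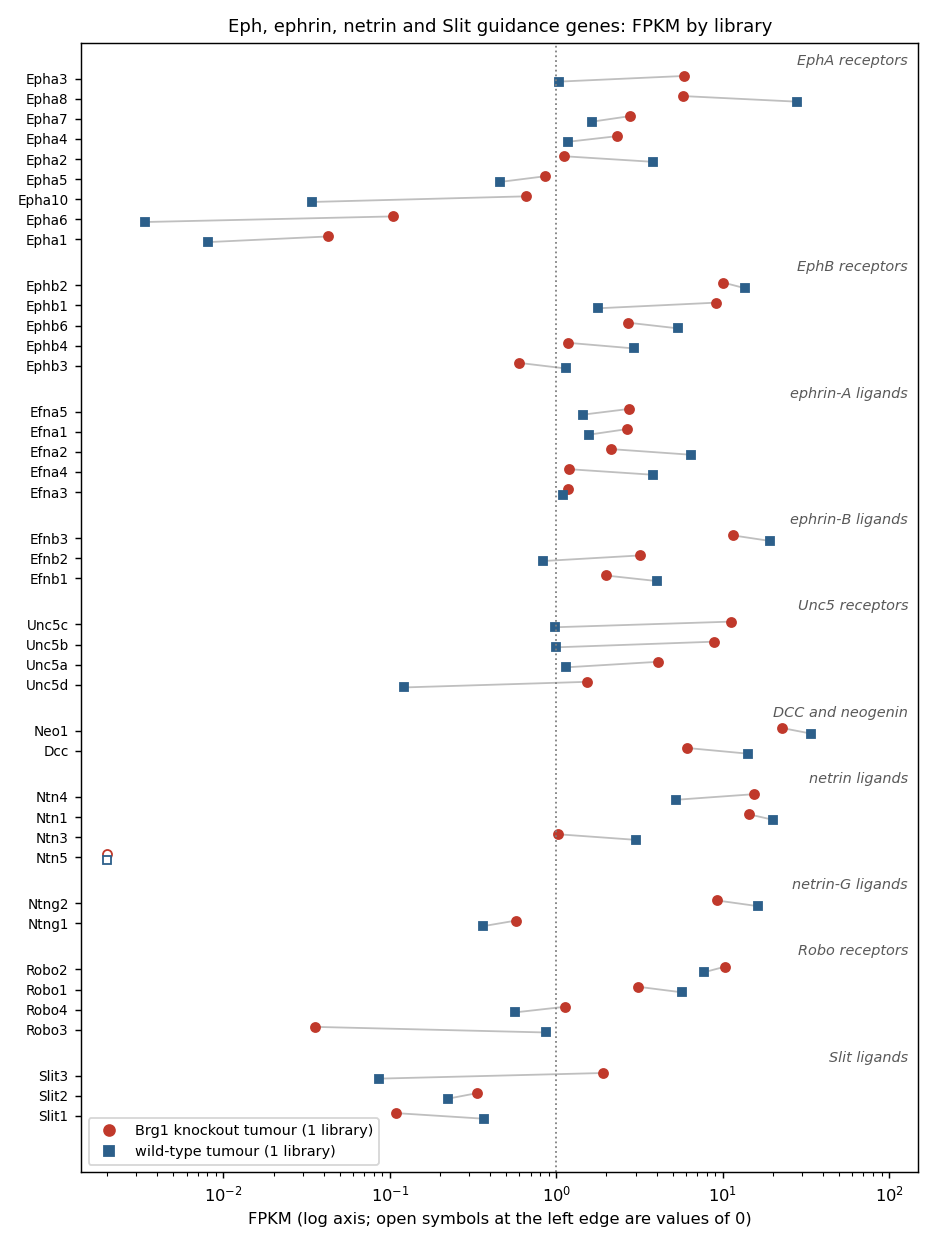
FPKM of each of the 41 guidance genes on a log axis, by family, in the knockout tumour (red circles) and the wild-type tumour (blue squares), 1 library each, with the dotted line at 1 FPKM. The Unc5 receptors lie to the right in the knockout tumour, with Unc5c at 11.2 FPKM against 0.984 FPKM in the wild type, and Epha8 lies to the left, at 5.74 FPKM in the knockout against 27.9 FPKM in the wild type.

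The Unc5 receptors, which turn the netrin response to repulsion, were the family with the largest relative difference in summed level among the 10 families. They summed to 25.6 FPKM in the knockout tumour and 3.24 FPKM in the wild-type tumour, a ratio of 7.91, and all 4 were called higher. Of the 4, Unc5c and Unc5d reached 1 FPKM in the knockout library alone. The share called higher over all expressed records was 16.1%. Unc5c (chromosome 3, 141465564 to 141834922, mm10) had 11.2 FPKM in the knockout and 0.984 FPKM in the wild-type tumour (log2 ratio 2.62). Unc5b, which also acts in blood vessels (chromosome 10, 60762595 to 60831581), had 8.81 FPKM in the knockout and 1.001 FPKM in the wild-type tumour (log2 ratio 2.29). Unc5a (chromosome 13, 54949432 to 55006018) had 4.11 FPKM in the knockout and 1.14 FPKM in the wild-type tumour (log2 ratio 1.26). Unc5d (chromosome 8, 28646717 to 29219636), which also binds the adhesion protein FLRT2, had 1.54 FPKM in the knockout and 0.122 FPKM in the wild-type tumour (log2 ratio 1.18). All 4 were thus at 1.14 FPKM or less in the wild-type tumour, and the difference in FPKM was largest for Unc5c and Unc5b. Both Unc5c values lay above their own deposited bounds, which were 7.77 to 8.60 FPKM in the knockout and 0.657 to 0.952 FPKM in the wild-type tumour. The knockout Unc5b value lay under its bounds and the wild-type Unc5a value above its bounds. The end of the Unc5a locus overlaps the Hk3 record (2.33 FPKM in the knockout and 1.59 FPKM in the wild-type library), and no source used here says whether counting used the strand. Mature granule neuron markers (992.5 FPKM in the knockout and 191.0 FPKM in the wild-type library) were higher in the same library as the Unc5 genes. So were Purkinje cell markers other than Aldoc (775.1 FPKM in the knockout and 12.8 FPKM in the wild type). Oligodendrocyte markers (726.4 FPKM in the knockout and 74.1 FPKM in the wild type) were higher there too. So were GABAergic interneuron markers (557.8 FPKM in the knockout and 67.1 FPKM in the wild type). The sums of the astrocyte, microglia, endothelial and pericyte lists were also higher, and those of precursors, oligodendrocyte precursors and dividing cells were lower. The part of any of these cell types in the difference was not tested.

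The other netrin receptors were at lower levels in the knockout tumour. Neo1, neogenin, the DCC relative that also binds RGM proteins, was the most abundant of all 41 genes in both tumours, with 22.6 FPKM in the knockout and 33.9 FPKM in the wild type (log2 ratio -0.56, within 2-fold). Dcc (chromosome 18, 71253632 to 72351069) had 6.14 FPKM in the knockout and 14.1 FPKM in the wild-type tumour (log2 ratio -1.08, called lower). Both Dcc values lay under their own deposited bounds, which were 9.72 to 10.5 FPKM in the knockout and 31.8 to 33.5 FPKM in the wild-type tumour. From the midpoints of the bounds the log2 ratio was -1.60, and with FPKM rescaled to the same sum in both libraries it was -0.92, inside the limit of -1. The 6 netrin receptor genes summed to similar levels, 54.4 FPKM in the knockout and 51.2 FPKM in the wild-type tumour, but were made up differently. Unc5 genes made up 47.1% of this sum in the knockout and 6.33% in the wild-type tumour, Dcc 11.3% in the knockout and 27.5% in the wild type, and Neo1 41.6% in the knockout and 66.1% in the wild type. From the bound midpoints, where the 6 genes summed to 56.2 FPKM in the knockout and 69.6 FPKM in the wild-type tumour, the Unc5 share was 41.5% in the knockout and 4.05% in the wild-type tumour. On that scale the Dcc share was 18.0% in the knockout and 46.9% in the wild type, close to that of Neo1 in the wild type (40.5% in the knockout and 49.0% in the wild type).

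**Figure D2:**
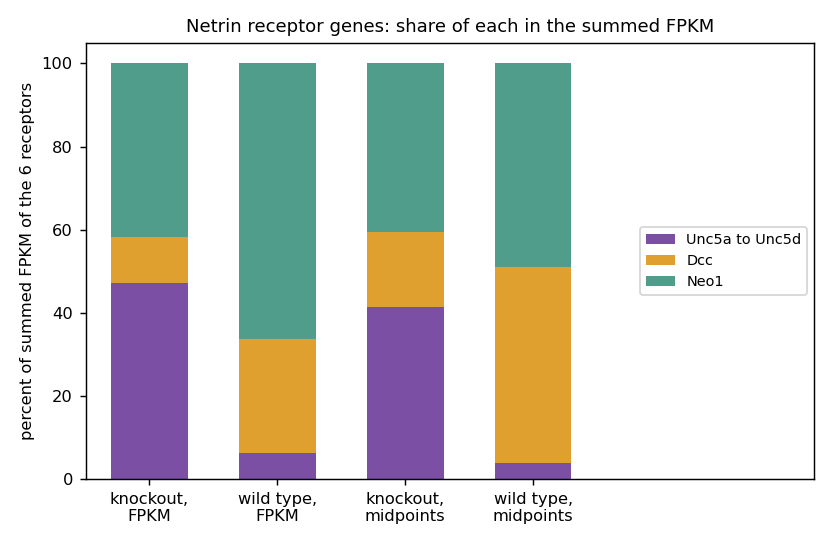
Share of the Unc5 genes, Dcc and Neo1 in the summed FPKM of the 6 netrin receptor genes (percent), in the knockout and wild-type libraries, from the deposited FPKM (left pair) and from the midpoints of the deposited bounds (right pair). Unc5 genes made up 47.1% in the knockout and 6.33% in the wild-type library on the FPKM scale, and from the midpoints 41.5% in the knockout and 4.05% in the wild-type library.

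The sequences shown next are the 250 bases before the RefSeq start of the 3 Unc5 genes found in the promoter table and of Epha8, the gene with the lowest log2 ratio, so that the start regions of genes that differed in opposite directions can be read side by side (GRCm38.p6, read 5′ to 3′ on the gene's strand). Capitals mark GC boxes, the letters GGGCGG or their reverse complement CCGCCC, and matches that overlap were counted separately. Unc5c lies at chr3:141465314-141465563 on the plus strand, Unc5b at chr10:60831582-60831831 on the minus strand, Unc5a at chr13:54949161-54949410 on the plus strand and Epha8 at chr4:136956817-136957066 on the minus strand.
Unc5c: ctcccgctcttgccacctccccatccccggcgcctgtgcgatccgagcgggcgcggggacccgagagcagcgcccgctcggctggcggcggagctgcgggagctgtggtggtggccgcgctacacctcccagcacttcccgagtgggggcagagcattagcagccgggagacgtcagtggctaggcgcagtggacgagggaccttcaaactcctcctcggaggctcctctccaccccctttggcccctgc
Unc5b: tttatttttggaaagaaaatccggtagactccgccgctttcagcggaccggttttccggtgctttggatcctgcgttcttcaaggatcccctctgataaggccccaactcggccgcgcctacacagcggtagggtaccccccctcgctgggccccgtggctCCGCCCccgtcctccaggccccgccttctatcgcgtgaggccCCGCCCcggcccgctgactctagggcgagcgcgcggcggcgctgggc
Unc5a: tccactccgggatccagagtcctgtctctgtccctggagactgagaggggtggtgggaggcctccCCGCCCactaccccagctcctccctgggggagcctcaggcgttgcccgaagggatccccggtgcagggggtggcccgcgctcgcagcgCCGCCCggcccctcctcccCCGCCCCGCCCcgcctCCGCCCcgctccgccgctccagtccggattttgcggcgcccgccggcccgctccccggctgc
Epha8: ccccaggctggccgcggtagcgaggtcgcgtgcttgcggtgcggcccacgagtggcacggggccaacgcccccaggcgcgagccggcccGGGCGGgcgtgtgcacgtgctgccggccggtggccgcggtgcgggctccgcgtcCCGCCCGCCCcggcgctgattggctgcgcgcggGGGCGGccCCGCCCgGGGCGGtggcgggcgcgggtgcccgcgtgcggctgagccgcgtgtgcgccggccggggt
These windows held 0 GC boxes in Unc5c, 2 in Unc5b, 5 in Unc5a and 6 in Epha8. Promoters were found for 36 of the 41 genes, and 25 of these held a GC box. Over all 27025 genes in the table, expressed or not, a lower share, 32.9%, held one. For the 36 the window starting nearest to an end of the deposited locus was used, and for all genes the first listed window. The shares of the 2 sets are therefore not fully alike in how they were made. A GC box was present in 5 of the 8 higher genes with a promoter, in 3 of the 4 lower ones and in 10 of the 16 expressed genes called neither. The E-box letters CAGCTG (12.8% of all promoters) and CAGATG or its reverse complement CATCTG (14.5%) were in 6 and 4 of the 36 windows, and the TATA box letters TATAAA or TTTATA (13% of all promoters) were in 2. The GLI core GACCACCCA or its reverse complement TGGGTGGTC (0.211% of all promoters) was in 0 of the 36. The median GC content was 65.2% in the 36 windows and 52% over all genes, and the GC box shares were not compared at like GC content. No match says only that these letters are not in this window.

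The netrin ligands had similar sums but another leading gene in each tumour, with 30.8 FPKM in the knockout and 28.3 FPKM in the wild-type tumour. Ntn4, a laminin-related netrin of basement membranes (chromosome 10, 93641049 to 93745972), had 15.5 FPKM in the knockout and 5.24 FPKM in the wild-type tumour (log2 ratio 1.40) and was the most abundant netrin in the knockout. The record Gm8580, inside the Ntn4 locus, had 2.56 FPKM in the knockout and 0.723 FPKM in the wild-type library. Ntn1, the classical secreted DCC ligand, had 14.3 FPKM in the knockout and 20.1 FPKM in the wild-type tumour (log2 ratio -0.46), where it was the most abundant. The knockout values of both lay under their own deposited bounds, 17.0 to 19.0 FPKM for Ntn4 and 14.7 to 16.1 FPKM for Ntn1. Ntn3 had 1.03 FPKM in the knockout and 3.03 FPKM in the wild-type tumour, just inside the limit (log2 ratio -0.99), and past it with smaller added values (-1.21 with 0.5 FPKM). Its locus overlaps that of Tbc1d24 (9.42 FPKM in the knockout and 12.4 FPKM in the wild type). Ntn5 was listed at 0 in both libraries. Of the netrin-Gs, lipid-anchored relatives that bind NGL adhesion proteins at synapses, Ntng2 had 9.25 FPKM in the knockout and 16.2 FPKM in the wild-type tumour (log2 ratio -0.75), and Ntng1 was under 1 FPKM in both, at 0.573 FPKM in the knockout and 0.363 FPKM in the wild type. Endothelial markers other than Ly6c1 (41.6 FPKM in the knockout and 24.97 FPKM in the wild-type library) and pericyte, fibroblast and meningeal markers (143.7 FPKM in the knockout and 43.4 FPKM in the wild type) differed in the same direction as Ntn4, and their part was not tested.

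EphA receptors summed to 19.4 FPKM in the knockout and 36.1 FPKM in the wild-type tumour, and the difference in Epha8 alone was larger than that between these sums. Epha8, an ephrin-A receptor (chromosome 4, 136929419 to 136956816), had 5.74 FPKM in the knockout and 27.9 FPKM in the wild-type tumour, 4.86 times as much in the wild type (log2 ratio -2.10). It made up 77.3% of the EphA sum in the wild-type tumour, while in the knockout Epha3 (29.97%) and Epha8 were nearly level. The knockout Epha8 value lay under its own bounds of 6.04 to 6.94 FPKM, and from the bound midpoints Epha8 had 6.49 FPKM and Epha3 5.71 FPKM in the knockout tumour. Epha3 had 5.82 FPKM in the knockout and 1.04 FPKM in the wild-type tumour (log2 ratio 1.74). Epha2, a receptor best known from epithelial and tumour cells, had 1.11 FPKM in the knockout and 3.82 FPKM in the wild-type tumour (log2 ratio -1.19). Epha4, which also binds ephrin-B ligands, had 2.31 FPKM in the knockout and 1.18 FPKM in the wild-type tumour (log2 ratio 0.61), and Epha7 had 2.77 FPKM in the knockout and 1.63 FPKM in the wild type (log2 ratio 0.52). Both stayed within 2-fold. Epha1, Epha5, Epha6 and Epha10 were under 1 FPKM in both tumours, with 0.0424 to 0.852 FPKM in the knockout and 0.00336 to 0.461 FPKM in the wild type. Epha8 was lower in the library in which precursor and tumour markers were lower (409.9 FPKM in the knockout and 1059 FPKM in the wild-type library), and the part of those cells in the difference was not tested.

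EphB receptors summed to nearly the same level, 23.6 FPKM in the knockout and 24.8 FPKM in the wild-type tumour. Ephb2 was the most abundant in both, with 10.1 FPKM in the knockout and 13.6 FPKM in the wild-type tumour (log2 ratio -0.40). Both Ephb2 values lay under their own deposited bounds, 12.4 to 13.6 FPKM in the knockout and 15.5 to 17.0 FPKM in the wild type. Ephb1 (chromosome 9, 101922128 to 102354693) was the 1 EphB gene past the limit, with 9.07 FPKM in the knockout and 1.78 FPKM in the wild-type tumour (log2 ratio 1.86). Ephb6, which lacks kinase activity, had 2.71 FPKM in the knockout and 5.37 FPKM in the wild-type tumour (log2 ratio -0.78). Ephb4, the receptor of veins for ephrin-B2, had 1.17 FPKM in the knockout and 2.92 FPKM in the wild type (log2 ratio -0.85, but -1.03 with 0.5 FPKM added). Ephb3 had 0.595 FPKM in the knockout and 1.14 FPKM in the wild-type tumour (log2 ratio -0.42). The 4 EphB genes other than Ephb1 thus had lower values in the knockout tumour, each inside the limit of the log2 ratio. Ephb2 and Epha8 lie 93.5 kb apart on chromosome 4, with log2 ratios of -0.40 and -2.10.

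The ephrin ligands were at low to moderate levels, 26.6 FPKM in sum in the knockout and 38.6 FPKM in the wild-type tumour. Efnb3, a midline ephrin of the spinal cord, was the most abundant ligand of the 8, with 11.5 FPKM in the knockout and 19.3 FPKM in the wild-type tumour (log2 ratio -0.70). Both Efnb3 values lay above their own deposited bounds, 8.17 to 9.59 FPKM in the knockout and 13.2 to 15.0 FPKM in the wild type. Efnb2, which also marks arteries, had 3.19 FPKM in the knockout and 0.830 FPKM in the wild-type tumour (log2 ratio 1.19) and was the 1 ephrin called higher. Efnb1, the X-linked ephrin, had 1.98 FPKM in the knockout and 4.05 FPKM in the wild-type tumour (log2 ratio -0.76). The endothelial markers other than Ly6c1, summed to 41.6 FPKM in the knockout and 24.97 FPKM in the wild-type library, differed in the same direction as Efnb2, and their part in this was not tested. Ephb4, the receptor of veins for ephrin-B2, differed in the other direction (1.17 FPKM in the knockout and 2.92 FPKM in the wild type). Among the ephrin-A genes, Efna2 had 2.14 FPKM in the knockout and 6.42 FPKM in the wild-type tumour (log2 ratio -1.24). Efna4 had 1.19 FPKM in the knockout and 3.83 FPKM in the wild-type tumour (log2 ratio -1.14). These were the 2 ephrins called lower, and they were the most abundant ephrin-A genes in the wild-type tumour. Efna5 had 2.72 FPKM in the knockout and 1.45 FPKM in the wild-type tumour (log2 ratio 0.60). Efna1 had 2.67 FPKM in the knockout and 1.57 FPKM in the wild type (log2 ratio 0.52), and Efna3 had 1.17 FPKM in the knockout and 1.10 FPKM in the wild type (log2 ratio 0.050). Efna1, Efna3 and Efna4 lie in a row on chromosome 3, with 34.0 kb and 10.5 kb between them, and Efna4 was the 1 gene of the row past the limit.

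**Figure D3:**
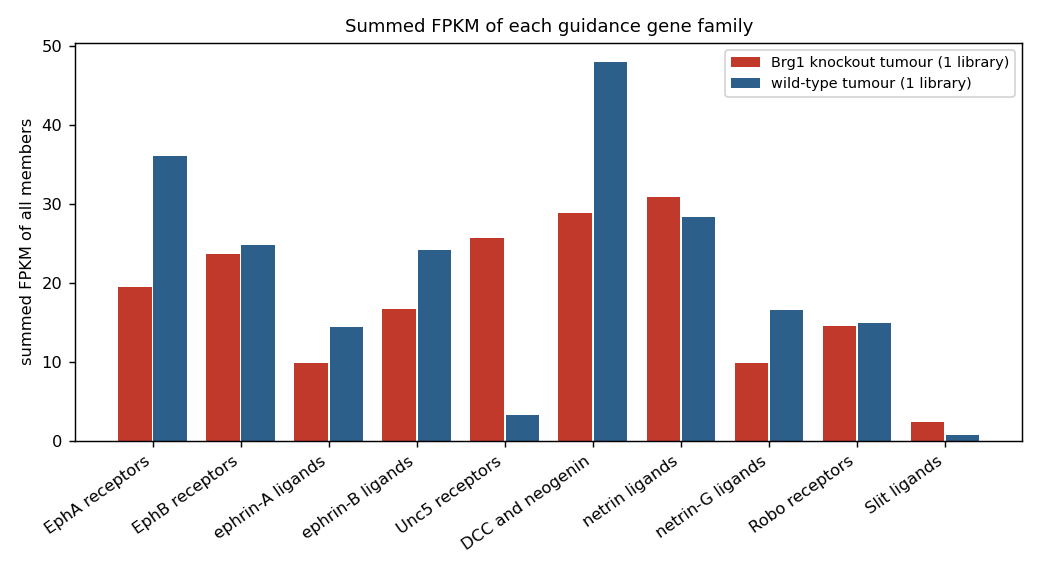
Summed FPKM of all members of each of the 10 families in the knockout tumour (red) and the wild-type tumour (blue), 1 library each. The Unc5 sum was 25.6 FPKM in the knockout and 3.24 FPKM in the wild-type tumour, while the EphB sums, 23.6 FPKM in the knockout and 24.8 FPKM in the wild type, lay close together.

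Slit genes were scarce and Robo genes moderate in both tumours. Slit3 (chromosome 11, 35121456 to 35708507) had 1.91 FPKM in the knockout and 0.0865 FPKM in the wild-type tumour (log2 ratio 1.42) and was the 1 Slit gene to reach 1 FPKM. Slit1 had 0.109 FPKM in the knockout and 0.369 FPKM in the wild type and Slit2 had 0.335 FPKM in the knockout and 0.223 FPKM in the wild type. Robo2 had 10.3 FPKM in the knockout and 7.71 FPKM in the wild-type tumour (log2 ratio 0.38), and Robo1, its neighbour on chromosome 16, had 3.10 FPKM in the knockout and 5.70 FPKM in the wild type (log2 ratio -0.71). All 4 of these Robo1 and Robo2 values lay under their own deposited bounds. Robo4, a receptor of endothelial cells, had 1.12 FPKM in the knockout and 0.563 FPKM in the wild-type tumour (log2 ratio 0.44). Robo3, which commissural axons use before they cross the midline, lies 2.02 kb from Robo4 and was under 1 FPKM in both tumours, at 0.0354 FPKM in the knockout and 0.872 FPKM in the wild type. No Robo gene was called on the FPKM scale (0 of 3 expressed). From the bound midpoints Robo3 passed 1 FPKM and its log2 ratio was -1.01.

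**Figure D4:**
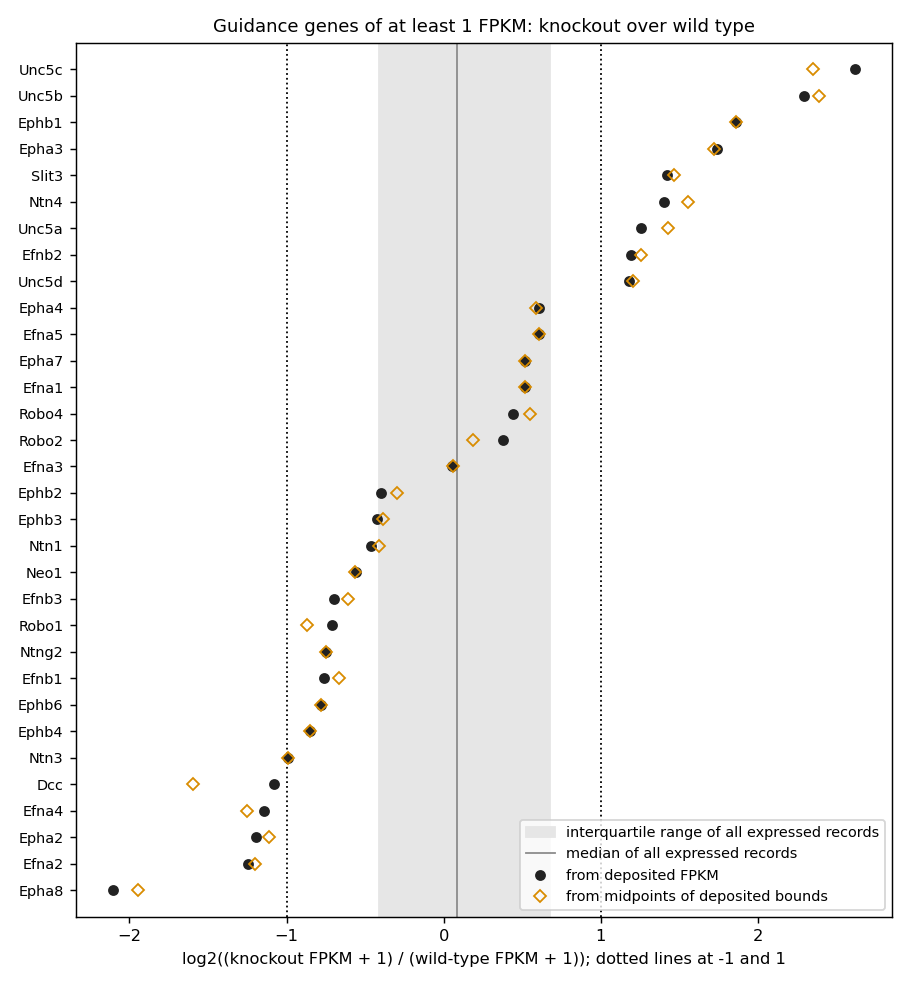
Log2 ratio of knockout over wild type for the 32 expressed guidance genes, from the deposited FPKM (black circles) and from the midpoints of the deposited bounds (open diamonds), with the median (grey line) and interquartile range (grey band) of all 13279 expressed records. On the FPKM scale Unc5c is highest at 2.62 and Epha8 lowest at -2.10. From the midpoints Unc5b, at 2.39, lies just above Unc5c, at 2.35, and the 2 values of Dcc lie apart, at -1.08 and -1.60.

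Many guidance genes are long, and expressed records differed with the length of their locus. Of the 15 expressed guidance genes with a locus of 100 kb or more, 6 (40%) were higher and 1 (6.67%), Dcc, was lower, with a median log2 ratio of 0.60. Of all 1746 expressed records of that length 27.3% were higher and 3.89% lower, with a median of 0.47. Of the 6 long higher genes, 3 (Slit3, Unc5c and Unc5d) reached 1 FPKM in the knockout library alone, as did 179 of the 476 higher records of that length. Of the 17 shorter guidance genes 3 (17.6%) were higher and 4 (23.5%) lower, with a median of -0.75. Among all 11533 expressed shorter records 14.4% were higher and 9.39% lower, with a median of 0.04. The 3 short higher genes were Unc5a, Unc5b and Efnb2, and the 4 short lower genes were Epha8, Epha2, Efna2 and Efna4. The 41 genes lie on 17 chromosomes.

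Proteins that carry these signals into the cell, or that act with or against the ligands and receptors outside it, were listed for each system. Of 24 partners of Ephs and ephrins 5 (20.8%) were higher and 1 (4.17%) was lower in the knockout tumour (median log2 ratio 0.46). The highest was Chn2, a chimaerin that inactivates Rac, with 81.0 FPKM in the knockout and 2.53 FPKM in the wild-type tumour (log2 ratio 4.54). Anks1b, an adaptor of synapses, had 23.1 FPKM in the knockout and 7.51 FPKM in the wild-type tumour. Kalrn, an exchange factor of neurons, had 3.58 FPKM in the knockout and 0.894 FPKM in the wild-type tumour, and Rgs3, which binds ephrin-B tails, had 3.92 FPKM in the knockout and 1.18 FPKM in the wild type. Vav2, an exchange factor recruited by Eph receptors, was the lower one, with 3.47 FPKM in the knockout and 10.1 FPKM in the wild-type tumour (log2 ratio -1.31). These shares stand beside the 16.1% and 8.67% of all expressed records, which had a median log2 ratio of 0.09. Of the higher partners, Kalrn reached 1 FPKM in the knockout library alone.

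Of 20 partners of Slits and Robos 3 (15%) were higher and 1 (5%) was lower (median log2 ratio 0.11). Among all expressed records 16.1% were higher and 8.67% lower (median 0.09). Pak1, a kinase activated by Rac and Cdc42, had 53.0 FPKM in the knockout and 5.87 FPKM in the wild-type tumour (log2 ratio 2.98). The Robo-binding GTPase activators Srgap2 (19.9 FPKM in the knockout and 7.32 FPKM in the wild-type tumour) and Srgap3 (16.9 FPKM in the knockout and 6.26 FPKM in the wild type) were higher. Gpc1, a heparan sulfate proteoglycan that binds Slits, was lower, with 13.2 FPKM in the knockout and 31.8 FPKM in the wild-type tumour (log2 ratio -1.21).

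Of 25 partners of netrins and their receptors 6 (24%) were higher and 3 (12%) lower (median log2 ratio 0.34). Among all expressed records 16.1% were higher and 8.67% lower (median 0.09). Filtering bears on this count too, since 2 of the 6 (Ablim3 and Lrrc4c) reached 1 FPKM in the knockout library alone. Draxin, a secreted antagonist that binds netrin-1 and DCC, which the tables list under its older symbol, had 17.1 FPKM in the knockout and 117.5 FPKM in the wild-type tumour (log2 ratio -2.71). The actin-binding LIM protein genes Ablim1 (24.3 FPKM in the knockout and 1.85 FPKM in the wild-type tumour, log2 ratio 3.15) and Ablim3 (10.2 FPKM in the knockout and 0.647 FPKM in the wild type, log2 ratio 2.77) were higher. Trim9, a ubiquitin ligase that binds DCC, had 27.3 FPKM in the knockout and 5.17 FPKM in the wild-type tumour (log2 ratio 2.20). Lrrc4c, the binding partner of netrin-G1, had 5.16 FPKM in the knockout and 0.542 FPKM in the wild-type tumour and was higher. Draxin was lower in the library in which precursor and tumour markers were lower, and the part of those cells was not tested.

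**Figure D5:**
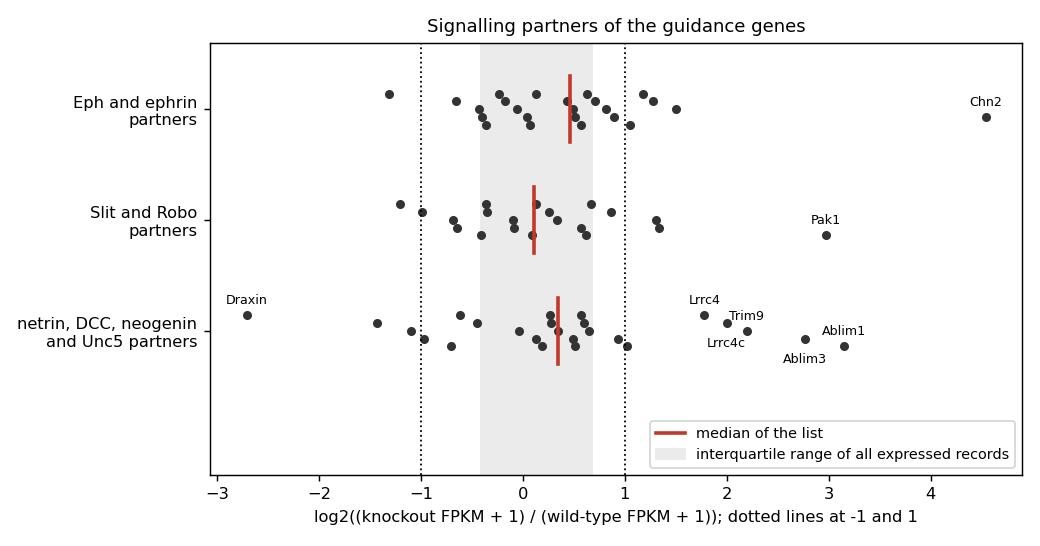
Log2 ratio of knockout over wild type for expressed signalling partners of each guidance system, 1 point per gene, with the median of each list (red line) and the interquartile range of all expressed records (grey band). Chn2 at 4.54 and Ablim1 at 3.15 lie farthest right and Draxin at -2.71 farthest left.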

How the data were processed

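RNA sequencing values of 2 tumours were analysed, 1 knockout and 1 wild type. Per the file headers, the authors deposited for each gene an FPKM value, 2 bounds around it and a status. The mouse build mm10 and Cuffdiff 2.1.1 are named, with no role, per the submitters' processing notes. How reads were aligned and how the bounds were calculated is not given in the sources used here. All 41 genes had the status OK in both libraries. In 34.4% of the 32 expressed guidance genes and 57.5% of all expressed records the FPKM lay outside its own bounds in at least 1 library. Starts in the tables were counted from 0: of 16 plus-strand guidance genes 11 then met the RefSeq start, against 0 when counted from 1.

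The guidance genes and gene lists were chosen with earlier results of these data known. Every guidance gene is named; of each partner list, up to 5 genes past the 2-fold limit are named, those with the largest absolute ratios first, and of marker lists the summed level. Older symbols were matched through RefSeq (1 gene, Draxin). Promoter sequences came from RefSeq (GRCm38.p6); Dcc, Efnb3, Ntn1, Slit1 and Unc5d have no entry. Alternatives covered the added value, the scaling, the filter, the bounds and the threshold. The tools were pandas 2.3.3 and numpy 2.4.6 under Python 3.11.15, with matplotlib 3.10.9 for the plots.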

Additional observations from a re-analysis of the deposited data

How the results depend on the processing

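With at least 5 FPKM in 1 library, 5 of 16 guidance genes were higher and 3 lower, where 15.8% of all records were higher and 10.6% lower. With records outside their own bounds left out, a setting added once the data had been seen, 5 of 21 were higher and 3 lower (all records 17.7% and 6.89%). At 1.5-fold 11 of 32 were higher and 12 lower (all records 28.1% and 18.0%). At 4-fold 2 of 32 were higher and 1 lower, near the shares of all records (4.17% and 1.499%). Under the other alternatives 7 to 9 were higher and 4 to 7 lower, while the shares of all records ran from 9.01% to 21.4% higher and from 4.85% to 10.9% lower. Medians near 0 moved with the settings. The median log2 ratio of the guidance genes was -0.044 with FPKM rescaled to the same sum, 0.050 with no filter, -0.51 at 5 FPKM, -0.43 with a mean of at least 1 FPKM, -0.30 from the bound midpoints and 0.050 inside the bounds. That of the ligands was -0.29 rescaled, 0 with no filter, -0.70 at 5 FPKM, -0.58 with the mean filter and -0.35 inside the bounds. That of the receptors was 0.52 rescaled, 0.24 with no filter, -0.40 at 5 FPKM, -0.0096 with the mean filter and -0.054 from the bound midpoints, so no direction can be given for the receptors as a group. Rescaling moved the median of all expressed records to 0.25, against 0.09 as deposited. Of the 14 called genes, Dcc alone fell inside the limit, and only when rescaled (-0.92); the other 13 stayed past it in the same direction under every alternative to the 2-fold rule that kept them. The cause of these shifts was not tested beyond what each setting removes. No paired analysis was possible because there is 1 library per genotype. Without replicates, counts or a known depth, the differences hold for these 2 libraries only.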
